A study of Mus musculus with 6 samples.

Results

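The transforming growth factor-β (Tgf-β) system of bulge stem cells (SCs) was described through 10 genes: the ligands Tgfb1, Tgfb2 and Tgfb3, the receptors Tgfbr1, Tgfbr2 and Tgfbr3, and the latent Tgf-β binding proteins Ltbp1, Ltbp2, Ltbp3 and Ltbp4. They were chosen by name, with earlier results of these data known, and all 10 were found among the 43274 genes of the expression table. RNA was sequenced from bulge SCs of 3 control and 3 ILK-K5 libraries, purified by FACS for CD34 and a high level of α6 integrin from mouse epidermis at postnatal day (P) 21. ILK-K5 mice had both alleles of Ilk, which encodes integrin-linked kinase, floxed and carried Cre under the keratin 5 promoter (genotype ILK -/- in the labels). Control mice carried the same Cre with 1 floxed allele (ILK +/-), so that both groups had Cre and the controls also lacked 1 functional copy in the recombined cells. The keratin 5 promoter drives Cre in basal cells of epidermis and hair follicle from before birth, so the deletion was neither restricted to the bulge nor induced at a chosen time. The labels do not say whether each library came from a separate mouse, and p-values measure the spread between these libraries.

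Tgf-β ligands are made as precursors that Furin cleaves, and each mature dimer leaves the cell held in its own propeptide, the latency-associated peptide. Ltbp1, Ltbp3 and Ltbp4 bind this small latent complex and anchor it to fibrillin and fibronectin in the matrix, whereas Ltbp2 does not bind the latent complex and is known as a partner of fibrillin-1. Integrins and proteases release the ligand, which binds Tgfbr2 and Tgfbr1 and leads to phosphorylation of Smad2 and Smad3, with Tgfbr3 (betaglycan) as a co-receptor that Tgf-β2 in particular depends on. In the hair follicle, Tgf-β2 from the dermal papilla is known for its role in the activation of SCs at the start of a hair cycle. The question for these data was which ligand, receptor and latency transcripts the sorted cells contained and which differed after loss of ILK.

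The promoters of Tgfb1, Tgfb2 and Ltbp2 are shown because these are the ligand transcript with the largest difference, the ligand on which the study centres and the only one of the 10 genes that passed the test. Each line holds 150 bases that end just before the first annotated base of the gene in GRCm38, written 5′ to 3′ on the strand of the gene from RefSeq windows for GRCm38.p6, with capitals marking a GC box (GGGCGG, either strand) or a TATA box (TATAAA, either strand). The Ltbp2 line ends 41 bases before the RefSeq start, since the annotation used for the genes begins further upstream.
Tgfb1, chr7:25686852-25687001, plus strand: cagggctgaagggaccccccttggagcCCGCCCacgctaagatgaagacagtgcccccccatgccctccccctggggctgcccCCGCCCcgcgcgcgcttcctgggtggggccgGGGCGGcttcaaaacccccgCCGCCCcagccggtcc
Tgfb2, chr1:186705990-186706139, minus strand: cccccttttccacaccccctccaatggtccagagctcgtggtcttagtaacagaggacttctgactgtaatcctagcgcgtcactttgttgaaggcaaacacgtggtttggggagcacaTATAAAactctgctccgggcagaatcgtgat
Ltbp2, chr12:84876533-84876682, minus strand: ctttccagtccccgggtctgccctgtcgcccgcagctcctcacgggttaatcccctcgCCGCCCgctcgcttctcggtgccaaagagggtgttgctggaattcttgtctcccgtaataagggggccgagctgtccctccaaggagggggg

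The Tgfb1 stretch held 4 GC boxes and no TATA box, and the Tgfb2 stretch held 1 TATA box and no GC box. In the whole RefSeq window, from 250 bases before to 50 after the start, Tgfb1 had 6 GC boxes, Ltbp2 had 2, and the TATA box of Tgfb2 began 31 bases before the start (position -31). Windows were found for 8 of the 10 genes, and 4 of these 8 (Tgfb1, Tgfbr1, Ltbp2 and Ltbp4) held a GC box, against 35.7% of all 32851 mouse windows. Here and below a gene was counted if any of its windows matched, and the 8 genes had 12 windows. The share over all windows is per single window, so the units differ. A TATA box was found in Tgfb2 alone among the 8, against 13.6% of all windows. An AP-1 motif (TGANTCA, either strand) was found in Ltbp3, against 7.81% of all windows, and a cyclic AMP response element (TGACGTCA, either strand) in Ltbp1, against 1.79%. The palindromic Smad motif (GTCTAGAC) was in none of the 8 windows and in 0.213% of all. None of these motifs contains another, and a match describes these letters only.

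The libraries held 8228019 to 11969072 reads on genes. Mitochondrial genes took 11.5% to 27.6% of the reads, and the 100 highest genes 37.4% to 54.3%. Ilk itself, on chromosome 7 from 105736592 to 105742925, had 10.6, 16.7 and 38.5 normalized counts in the controls (libraries 1 to 3) and 14.8, 30.9 and 29.2 in ILK-K5. Of its 2744 exon bases 89.7% are shared with genes on the opposite strand, and the library kit does not mark strand, so the count of Ilk did not serve as a check of genotype. Of the bulge SC markers, Cd34, the sorting antigen, fell from 2009, 947 and 1960 to 296, 560 and 433 normalized counts (log2 fold change -1.90, adjusted p = 0.0239 from limma), and the other 6 of 7 did not pass the test, among them Krt15 and Sox9. None of 5 basal keratinocyte markers passed. All 14 macrophage markers rose, with a summed level of 112 to 187 normalized counts in control and 15069 to 22400 in ILK-K5 libraries. They include Ctss, Lyz2 and Csf1r, and 4 of them (Cd14, C1qa, C1qb and Aif1) had at most 3 reads in every control library. Leukocyte markers in general rose at 4 of 4, from a sum of 36.5 to 95.8 to a sum of 2629 to 3398. Of the remaining lists, 1 of 5 tested T cell markers rose (Cd2, sums of 158 to 177 and 291 to 364), 1 of 5 Langerhans and dendritic cell markers (Itgax, sums of 74.5 to 100 and 968 to 1611) and 1 of 4 tested fibroblast and dermal papilla markers (Col3a1, sums of 664 to 814 and 1588 to 2493). Itgax made up most of the Langerhans and dendritic cell sum in every ILK-K5 library. Cd207 of that list had 7.72, 42.6 and 68.2 normalized counts in control and 425, 133 and 108 in ILK-K5 libraries. Cd207 was not called (adjusted p = 0.148 from limma). No endothelial marker of 2 tested and no smooth muscle or pericyte marker of 2 tested passed, with summed levels of 60.2 to 178 and 10.6 to 78.1 in control against 81.8 to 93.4 and 102 to 162 in ILK-K5. Of the melanocyte markers, 1 of 4 tested fell, Mitf, which is also expressed outside melanocytes. Mitf made up most of the sum of this list in every library (672 to 1281 and 264 to 458). The other 3 tested were not called and had positive log2 fold changes. These were 0.60 for Dct, 0.20 for Pmel and 3.29 for Tyrp1 (adjusted p = 0.814, 0.955 and 0.119 from limma). Tyrp1, named after its values were seen, did not overlap between genotypes. Des and Mlana had at most 3 reads in every library. The RNA is that of all sorted cells together, and more cells of a type cannot be told apart from more RNA per cell.

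Values for the Tgf-β genes are given as normalized counts, which are reads divided by a factor for each library, for libraries 1, 2 and 3 of each genotype. The 16368 genes that averaged 10 or more normalized counts were tested with limma on log2(normalized count + 1), which understates the change of low genes, and a gene was called at an adjusted p of at most 0.05 over all of them. By this test 1 of the 10 genes was called, Ltbp2, which was lower in ILK-K5 bulge SCs. Over all tested genes 0.599% were called lower and 2.93% higher. None of the 10 was called higher with limma at the adjusted threshold, whereas 3 were higher and 3 lower at an unadjusted p under 0.05, where the shares over all tested genes were 8.18% higher and 4.11% lower. The 3 libraries of each genotype did not overlap for the same number of genes, 3 higher and 3 lower, against 10.9% and 6.95% of all genes tested. DESeq2 on the recovered reads called 2 of the 10 higher (Tgfb1 and Tgfbr1) and 1 lower (Ltbp2), against 4.72% and 1.71% of all genes, and edgeR called 0 higher and 1 lower, against 2.58% and 0.532%. A further limma fit had a term that separates replicate 1 from replicates 2 and 3. The deposited column numbers of replicates 2 and 3 differ but share an ending that replicate 1 lacks and that the labels do not explain. This limma fit called Tgfb1, Tgfbr1 and Tgfbr2 higher and Ltbp1 and Ltbp2 lower, against 5.17% and 1.75% of all genes. The median log2 fold change of the 10 genes was 0.38, with 6 positive and 4 negative, and that of all tested genes was 0.01.

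**Figure D1:**
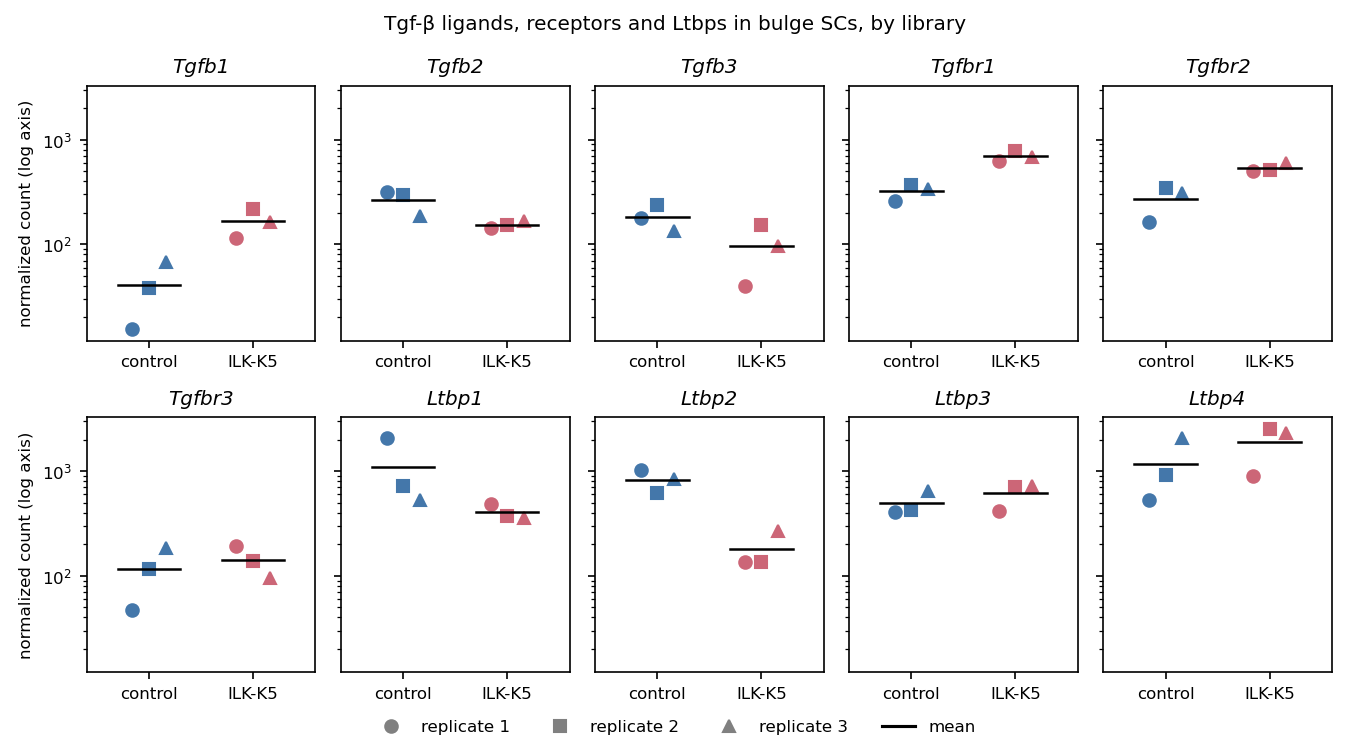
Normalized counts (log scale) of the 10 Tgf-β genes in the 3 control and 3 ILK-K5 libraries, with 1 point per library, shaped by replicate number, and a bar for the mean. Tgfb1, Tgfbr1 and Tgfbr2 had every ILK-K5 library above every control library, Tgfb2, Ltbp1 and Ltbp2 had every ILK-K5 library below, and the remaining 4 genes overlapped.

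By the deposited levels per length, Tgfb1 was the highest ligand transcript in every ILK-K5 library and the lowest in every control library. No ligand gene passed the test between genotypes. By normalized counts, Tgfb1 was below Tgfb2 in ILK-K5 libraries 1 (114 against 143) and 3 (163 against 168). Its top rank in ILK-K5 thus depends on the gene lengths behind the deposited levels. Tgfb1 (ENSMUSG00000002603, chromosome 7, 25687002 to 25705077, plus strand) encodes the ligand known from leukocytes and platelets as well as from epithelium. It had 15.4, 38.0 and 68.2 normalized counts in control and 114, 219 and 163 in ILK-K5 libraries. Every ILK-K5 library was thus above every control library, although the controls themselves spread widely and the lowest rested on 16 reads. The means were 40.6 ± 26.5 and 165 ± 52.6 (SD, n = 3 each), a log2 fold change of 2.18 (SE 0.55, adjusted p = 0.0740 from limma), which did not pass. DESeq2 on the recovered reads called Tgfb1 higher (2.0, adjusted p = 0.00983) and edgeR's quasi-likelihood test did not (2.0, adjusted p = 0.118), and over the 12 alternatives with all libraries or with replicates 2 and 3 only the value lay between 1.87 and 2.22, with adjusted p between 0.00671 and 0.118. Without control library 3, the highest control, limma gave 2.66 and an adjusted p of 0.0275, and without any other single library Tgfb1 was not called. The macrophage and general leukocyte markers moved in the same direction in the same libraries, and their part in the level of Tgfb1 was not tested.

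Tgfb2 (ENSMUSG00000039239, chromosome 1, 186622792 to 186705989, minus strand) encodes the ligand after which the study names the pathway it follows in these cells. Its normalized counts were 316, 295 and 187 in control and 143, 152 and 168 in ILK-K5 libraries, from 126 to 328 reads. All 3 ILK-K5 libraries lay below the lowest control library and close together, while control library 3 was nearer to them than to the other two controls. The log2 fold change was -0.75 (SE 0.31, adjusted p = 0.357 from limma), which did not pass, and neither edgeR nor DESeq2 called it. Over all alternatives run, leaving out each library included, Tgfb2 kept this sign, between -0.98 and -0.56.

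Tgfb3 (ENSMUSG00000021253, chromosome 12, 86056745 to 86079041, minus strand), the third isoform, had 179, 240 and 133 normalized counts in control and 39.8, 153 and 95.5 in ILK-K5 libraries. ILK-K5 library 2 lay above control library 3, so the groups overlapped. The means of 184 ± 53.9 and 96.0 ± 56.4 (SD, n = 3 each) gave a log2 fold change of -1.09 (SE 0.50, adjusted p = 0.439 from limma), which did not pass. Of its exon bases 12.4% are shared with Gm37804 and Gm48008 on the opposite strand.

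The make-up of the ligands was compared within each library per length, as FPKM (fragments per kilobase of transcript, scaled for depth), so that the scaling of a library cancels. The ratio of Tgfb1 to Tgfb2 FPKM was 0.110, 0.292 and 0.825 in the controls and 1.8, 3.26 and 2.2 in ILK-K5 bulge SCs (libraries 1 to 3 of each). By FPKM, Tgfb2 was thus the higher of this pair in every control library, and Tgfb1 in every ILK-K5 library. By normalized counts, Tgfb2 was also the higher in ILK-K5 libraries 1 (143 against 114) and 3 (168 against 163). The ILK-K5 means were 165 normalized counts and 6.62 FPKM for Tgfb1, and 154 and 2.73 for Tgfb2. Their annotated exon bases are 5042 and 5791, so the lengths behind FPKM do not follow these. Which of the pair is higher in ILK-K5 depends on those lengths, whereas the difference between genotypes in their log2 ratio does not. On the log2 scale the ratio averaged -1.74 ± 1.45 and 1.23 ± 0.44 (SD, n = 3 each), a difference of 2.97 (exact permutation test, two-sided, p = 0.10). This is the smallest p that 3 against 3 libraries can give, so no threshold of 0.05 could be reached by that test. A limma fit of the difference between the log2(normalized count + 1) values of Tgfb1 and Tgfb2, added after the data were seen, gave 2.93 (SE 0.64, p = 0.00124), and with replicates 2 and 3 only the difference was 2.45 (exact permutation p = 0.333).

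As shares of the summed ligand FPKM, Tgfb1 made up 5.31%, 10.9% and 27.1% in control and 54.9%, 54.5% and 52.7% in ILK-K5 libraries. Its share was spread over a wide range in control and held within 1.2 percentage points (SD) in ILK-K5 bulge SCs. Tgfb2 made up 48.1%, 37.2% and 32.9% in control and 30.6%, 16.7% and 24.0% in ILK-K5 libraries. Tgfb3 made up 46.6%, 51.9% and 39.9% in control and 14.5%, 28.7% and 23.4% in ILK-K5 libraries. None of these FPKM shares overlapped between genotypes (exact permutation p = 0.10 each, adjusted over 10 shares p = 0.200). The differences were 39.6, -15.7 and -23.9 percentage points for Tgfb1, Tgfb2 and Tgfb3. With normalized counts in place of FPKM they were 30.4, -15.0 and -15.4 (exact permutation p = 0.10, 0.200 and 0.10), so the Tgfb2 shares then overlapped. Shares are parts of a fixed whole, so a higher share of Tgfb1 lowers those of Tgfb2 and Tgfb3 together. The summed ligand FPKM was 11.9 ± 1.99 in control and 12.3 ± 3.89 in ILK-K5 bulge SCs (SD, n = 3 each, exact permutation p = 0.900), and these sums overlapped. In normalized counts the ligand sums were 511, 573 and 388 in control and 297, 524 and 426 in ILK-K5 libraries. The FPKM shares and sums rest on the gene lengths behind FPKM.

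**Figure D2:**
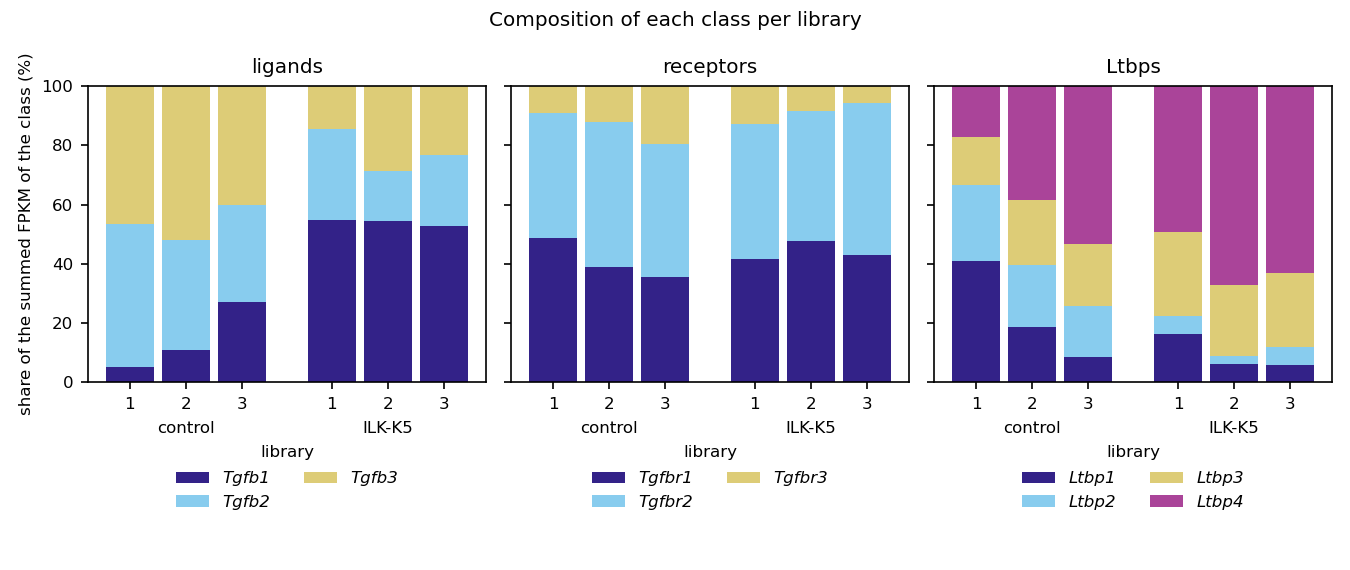
Share of the summed FPKM (%) that each gene took within the ligands, the receptors and the Ltbps, with 1 stacked bar per library and the genotypes side by side. Tgfb1 took 52.7% to 54.9% of the ligand FPKM in the ILK-K5 libraries and 5.31% to 27.1% in the control libraries, and Ltbp2 took 2.87% to 5.94% of the Ltbp FPKM in ILK-K5 and 17.2% to 25.8% in control.

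The signalling receptors were both higher in every ILK-K5 library, by about the same factor, without passing the adjusted threshold. Tgfbr1 (ENSMUSG00000007613, chromosome 4, 47353222 to 47414931, plus strand), the type I receptor kinase that phosphorylates Smad2 and Smad3, had 257, 371 and 335 normalized counts in control and 624, 774 and 684 in ILK-K5 libraries. Even the highest control was well below the lowest ILK-K5 library. The log2 fold change of 1.12 (SE 0.27) had an adjusted p of 0.0562 with limma and of 0.0618 with edgeR, just above the threshold, and of 0.00681 with DESeq2 (1.09). A pseudocount of 5 in place of 1 brought the limma value to 0.0498, and leaving out any 1 library left it between 0.0801 and 0.291.

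Tgfbr2 (ENSMUSG00000032440, chromosome 9, 116084293 to 116175360, minus strand), the type II kinase that binds the ligand and activates Tgfbr1, had 164, 344 and 308 normalized counts in control and 501, 518 and 592 in ILK-K5 libraries. Control library 1 was the lowest by a wide margin, as it was for Tgfbr1. The log2 fold change was 1.04 (SE 0.33, adjusted p = 0.168 from limma) and did not pass with edgeR or DESeq2 either. Without control library 1 it was 0.72, and without any 1 library it lay between 0.72 and 1.25.

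Tgfbr3 (ENSMUSG00000029287, chromosome 5, 107106570 to 107289629, minus strand), the co-receptor, had 47.3, 117 and 184 normalized counts in control and 191, 140 and 94.5 in ILK-K5 libraries. The groups overlapped almost completely, and the log2 fold change of 0.43 (SE 0.52, adjusted p = 0.867 from limma) turned to -0.11 without control library 1. The summed receptor FPKM was 8.28, 15.0 and 14.7 in control and 23.5, 25.4 and 24.9 in ILK-K5 libraries, higher in 3 of 3 (exact permutation p = 0.10, the smallest possible). Within that sum the shares overlapped between genotypes, 41.0% and 44.2% for Tgfbr1 (exact permutation p = 0.500), 45.4% and 46.7% for Tgfbr2 (p = 0.600) and 13.6% and 9.11% for Tgfbr3 (p = 0.400), as means of control and ILK-K5 bulge SCs. Macrophage markers moved with the summed receptor level, and their part in it was not tested.

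Of the latent Tgf-β binding proteins, Ltbp2 fell, Ltbp1 was lower in every ILK-K5 library without passing, and Ltbp3 and Ltbp4 overlapped between the genotypes. Ltbp2 (ENSMUSG00000002020, chromosome 12, 84783212 to 84876532, minus strand) had 1016, 623 and 842 normalized counts in control and 137, 137 and 270 in ILK-K5 libraries. The highest ILK-K5 library was well under the lowest control library. The mean of 827 ± 197 against 181 ± 76.9 (SD, n = 3 each) was a fall by 2.24 on the log2 scale (SE 0.35, adjusted p = 0.00813 from limma), or 4.71-fold. It was also called with edgeR (-2.20, adjusted p = 0.0124) and DESeq2 (-2.22, adjusted p = 2.85e-06). It was called without each of the 6 libraries in turn, with values from -2.56 to -2.07 and adjusted p from 0.00986 to 0.0472. With replicates 2 and 3 only it was -1.91 with an adjusted p of 0.0516. An antisense transcript covers 9.34% of the exon bases of Ltbp2 and had 11 to 34 reads in control and 3 to 5 in ILK-K5 libraries, and reads of the pair on these bases cannot be told apart without strand.

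Ltbp1 (ENSMUSG00000001870, chromosome 17, 75005568 to 75392512, plus strand), the founding member that binds latent Tgf-β and fibronectin, had 2065, 725 and 528 normalized counts in control and 482, 374 and 353 in ILK-K5 libraries. Control library 1 stood far above the other 5 libraries, and without it the log2 fold change went from -1.21 (SE 0.46, adjusted p = 0.290 from limma) to -0.63 (adjusted p = 0.468). Over all alternatives its value lay between -1.61 and -0.63. No member of the family other than Ltbp2 was called with limma, edgeR or DESeq2 fitted by genotype alone.

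Ltbp3 (ENSMUSG00000024940, chromosome 19, 5740904 to 5758532, plus strand), which binds and helps to secrete latent Tgf-β, had 404, 421 and 649 normalized counts in control and 418, 713 and 726 in ILK-K5 libraries. The log2 fold change was 0.32 (SE 0.32, adjusted p = 0.822 from limma). Ltbp4 (ENSMUSG00000040488, chromosome 7, 27305136 to 27337692, minus strand), which binds latent Tgf-β1 and takes part in elastic fibre assembly, had 535, 920 and 2060 normalized counts in control and 891, 2524 and 2296 in ILK-K5 libraries. Library 1 was the lowest of its genotype for both genes, and the log2 fold change of Ltbp4 was 0.78 (SE 0.54, adjusted p = 0.706 from limma).

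Within the summed Ltbp FPKM, Ltbp2 took 25.8%, 20.7% and 17.2% in control and 5.94%, 2.87% and 5.87% in ILK-K5 libraries (exact permutation p = 0.10, adjusted over 10 shares p = 0.200). The share of Ltbp3 was 19.7% ± 3.11 and 25.7% ± 2.58 (SD, n = 3 each, exact permutation p = 0.10) and also did not overlap between genotypes. Ltbp1 took 22.7% ± 16.6 and 9.50% ± 5.93, and Ltbp4 36.4% ± 18.2 and 59.9% ± 9.57 (SD, n = 3 each, exact permutation p = 0.200 each), and both overlapped. These differences of -13.2 and 23.5 percentage points were -4.10 and 13.9 without control library 1, and -20.3 and 32.0 without control library 3. The summed Ltbp FPKM was 49.5 ± 11.7 in control and 48.6 ± 17.2 in ILK-K5 bulge SCs (SD, n = 3 each, exact permutation p = 0.900).

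**Figure D3:**
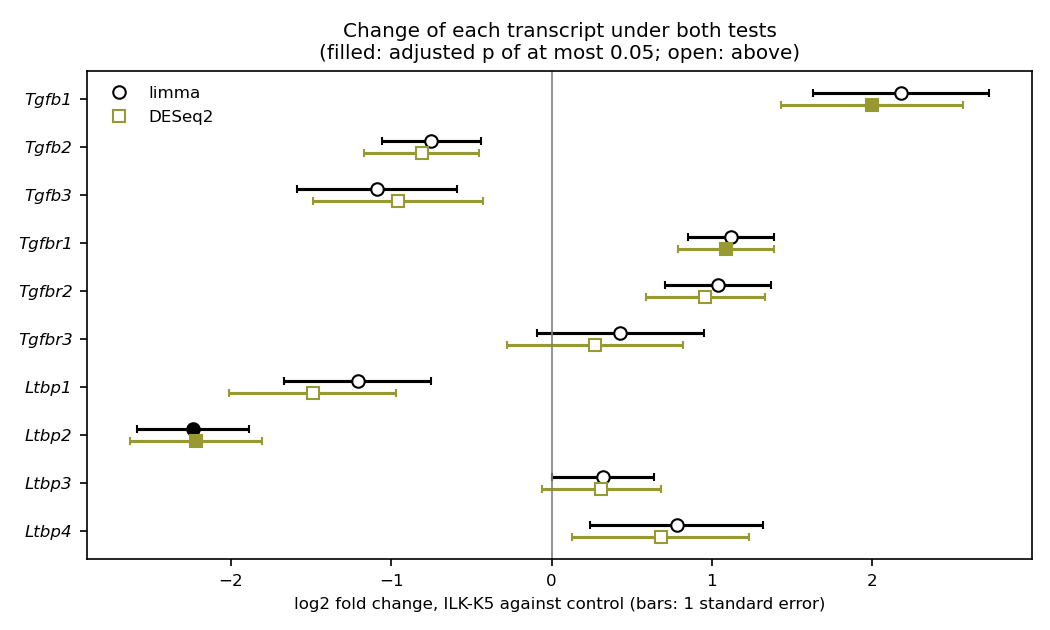
Log2 fold change (ILK-K5 against control) of the 10 Tgf-β genes from limma, with bars of 1 SE and n = 3 libraries per genotype. With limma, Ltbp2, at -2.24, was the only gene called, and Tgfb1, at 2.18, had the largest positive value. DESeq2 on the recovered reads called Ltbp2 lower as well, and also called Tgfb1 and Tgfbr1 higher.

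The order of the levels, compared per length as mean FPKM, differed between the genotypes. In control bulge SCs the order was Ltbp4 at 18.6, Ltbp1 at 10.8, Ltbp2 at 10.4, Ltbp3 at 9.71, Tgfbr2 at 5.83, Tgfb3 at 5.58, Tgfbr1 at 5.03, Tgfb2 at 4.71, Tgfbr3 at 1.82 and Tgfb1 at 1.63. Of these neighbours, Ltbp3 and Tgfbr2 did not overlap over the 3 libraries, and neither did Tgfb2 and Tgfbr3, while all other neighbours overlapped. Ltbp1, which ranged from 5.16 to 20.2, also overlapped the genes from Tgfbr2 to Tgfb2. In ILK-K5 bulge SCs the order was Ltbp4 at 30.2, Ltbp3 at 12.2, Tgfbr2 at 11.5, Tgfbr1 at 10.9, Tgfb1 at 6.62, Ltbp1 at 3.94, Tgfb3 at 2.91, Tgfb2 at 2.73, Ltbp2 at 2.27 and Tgfbr3 at 2.23. Among these neighbours only Tgfbr1 and Tgfb1 did not overlap, and Ltbp3, from 8.26 to 14.3, overlapped Tgfb1, from 4.56 to 8.78. By its mean Tgfb1 thus stood last in control and directly below the receptor kinases in ILK-K5, while Ltbp2 stood among the Ltbps at the top in control and next to last in ILK-K5. This order rests on the gene lengths behind the deposited FPKM. Relative to annotated exon bases these lengths are shorter for Tgfb1, Tgfbr2 and Ltbp3 than for the other genes, which raises the FPKM of those named.

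The genes most like Tgfb1, Tgfb2 and Ltbp2 were named by the root mean square difference of their log2 values over the 6 libraries, each centred on its own mean, a measure that includes the difference between genotypes. For Tgfb1 the 5 closest were Sox7 (0.15), Casp4 (0.16), Stk17b (0.21), Gm16054 (0.22) and Rptn (0.26), and of these Stk17b was called higher with limma (adjusted p = 0.0194). For Tgfb2 they were Rims1 (0.04), Smarce1 (0.09), Adgrg6 (0.09), Mios (0.11) and Rab30 (0.11), none of them called. For Ltbp2 they were Col8a2 (0.29), Them5 (0.30), Nrip3 (0.30), Fst (0.31) and Gm29237 (0.31). Among these last 5, Col8a2, a short-chain collagen, Them5, Nrip3 and Fst, which encodes the activin antagonist follistatin, were called lower with limma (adjusted p = 0.0110, 0.00548, 0.00364 and 0.0208).

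The rest of the pathway was followed in 5 lists with 45 genes, all of them tested, of which 5 were called higher, 0 lower and 40 not called with limma. Over all tested genes the shares were 2.93% higher and 0.599% lower. At an unadjusted p under 0.05, 18 of the 45 were higher and 1 lower with limma, against 8.18% and 4.11% of all tested genes. DESeq2 called 9 higher and 1 lower, against 4.72% and 1.71%. The median log2 fold change of the 45 genes was 0.69, with 38 positive. The lists were chosen with earlier results of these data known, so their counts beside those of all genes are not independent evidence.

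Of 13 genes for ligand processing and activation, 1 was called higher, and the median was 1.03. This was Mmp9, a gelatinase that can release latent Tgf-β, with 0.00, 1.52 and 4.35 normalized counts in control and 41.0, 54.0 and 63.3 in ILK-K5 libraries (log2 fold change 4.48, SE 0.79, adjusted p = 0.0149 from limma). Without 1 library it was called in 2 of 6 fits, and the adjusted p lay between 0.00886 and 0.123, above the threshold when control library 2 (0.0567) or ILK-K5 library 1 (0.0638), 2 (0.113) or 3 (0.123) was left out, and with a pseudocount of 0.1 (0.0758). The study lists Mmp9 among target genes of Tgf-β2, so its call is not independent evidence on ligand activation. Macrophage and general leukocyte markers rose in the same libraries, and their part in the level of Mmp9 was not tested. Thbs1, the activator thrombospondin-1, had 794, 1346 and 2714 normalized counts in control and 6388, 3468 and 4422 in ILK-K5 libraries, without overlap but with an adjusted p of 0.0836 from limma. Itgb6, whose product with αv integrin activates latent Tgf-β, had 1983, 1989 and 784 in control and 765, 1009 and 867 in ILK-K5 libraries (adjusted p = 0.525 from limma), and Itgb1 had 2239 ± 298 and 2542 ± 286 (SD, n = 3 each, adjusted p = 0.885 from limma). Itgb8 and Furin, named for their roles after their values were seen, had log2 fold changes of 0.53 (adjusted p = 0.474) and 1.6 (adjusted p = 0.104, limma).

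Of 9 genes for matrix anchoring and presentation, 2 were called higher, Fn1 and Tgm2, and the median was 1.52. Fn1, which encodes the fibronectin that anchors latent complexes, rose from 130, 111 and 231 to 3299, 2746 and 1889 normalized counts, a log2 fold change of 4.10 (SE 0.35, adjusted p = 3.68e-04 from limma). Tgm2, the transglutaminase that cross-links Ltbp1 to the matrix, rose from 9.65, 3.04 and 11.6 to 186, 192 and 127 (4.35, SE 0.56, adjusted p = 0.00261 from limma), and 21.8% of its exon bases are shared with genes on the opposite strand. Of the others, the proteoglycan genes Bgn and Dcn had log2 fold changes of 0.06 and 0.61 (adjusted p = 0.983 and 0.852, limma). Fbn1, for fibrillin-1, had 4.82, 18.2 and 34.1 normalized counts in control and 105, 141 and 70.1 in ILK-K5 libraries (2.70, adjusted p = 0.0712 from limma). Both macrophages and fibroblasts are known to express Fn1 and Tgm2, and the part of the macrophage and fibroblast markers described above in these levels was not tested.

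None of 7 receptor partners was called with limma, and 1 was higher at an unadjusted p under 0.05, with a median of 0.20. Cd109, a co-receptor that dampens Tgf-β signalling in keratinocytes, had 2028 ± 286 and 1447 ± 233 normalized counts (SD, n = 3 each, adjusted p = 0.531 from limma). Dab2 and Zfyve9, adaptors between receptors and Smads, had log2 fold changes of 0.20 and -0.16. None of 10 Smads and Smad regulators was called with limma, and 1, Skil, was higher at an unadjusted p under 0.05, with a median of 0.21. Skil, a Smad repressor that Tgf-β itself induces, had 984, 1215 and 779 normalized counts in control and 2960, 1320 and 1789 in ILK-K5 libraries (adjusted p = 0.234 from limma), and the repressor Ski and the ubiquitin ligase Smurf2 had log2 fold changes of 0.35 and -0.02. The Smads of the pathway, Smad2, Smad3 and Smad4, named for their roles after their values were seen, had log2 fold changes of 0.19, 0.18 and 0.22 (SE 0.28, 0.33 and 0.24).

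Of 6 transcriptional targets, 2 were called higher with limma, and the median was 2.05. The study itself describes targets of Tgf-β in these libraries, so this list is not independent evidence of its direction. Pmepa1, a target whose product limits Smad signalling, rose from 46.3, 63.9 and 74.0 to 963, 727 and 619 normalized counts (3.63, SE 0.32, adjusted p = 3.77e-04 from limma). Mmp13, a collagenase, had at most 3 reads in every control library and 553, 581 and 356 normalized counts in ILK-K5 libraries, at least 155-fold higher when each control library is set to a floor of 3 reads (adjusted p = 3.13e-04 from limma). The other 4 targets did not pass. Tgfbi, a matrix protein induced by Tgf-β, had 5647 ± 976 and 5959 ± 805 normalized counts (SD, n = 3 each, adjusted p = 0.960 from limma). Ccn2, for connective tissue growth factor, had 8808, 5602 and 3276 in control and 1600, 2561 and 2731 in ILK-K5 libraries, lower without overlap (log2 fold change -1.28, adjusted p = 0.152 from limma), and shares 23.2% of its exon bases with Gm15270 on the opposite strand, which had 13 to 150 reads.

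**Figure D4:**
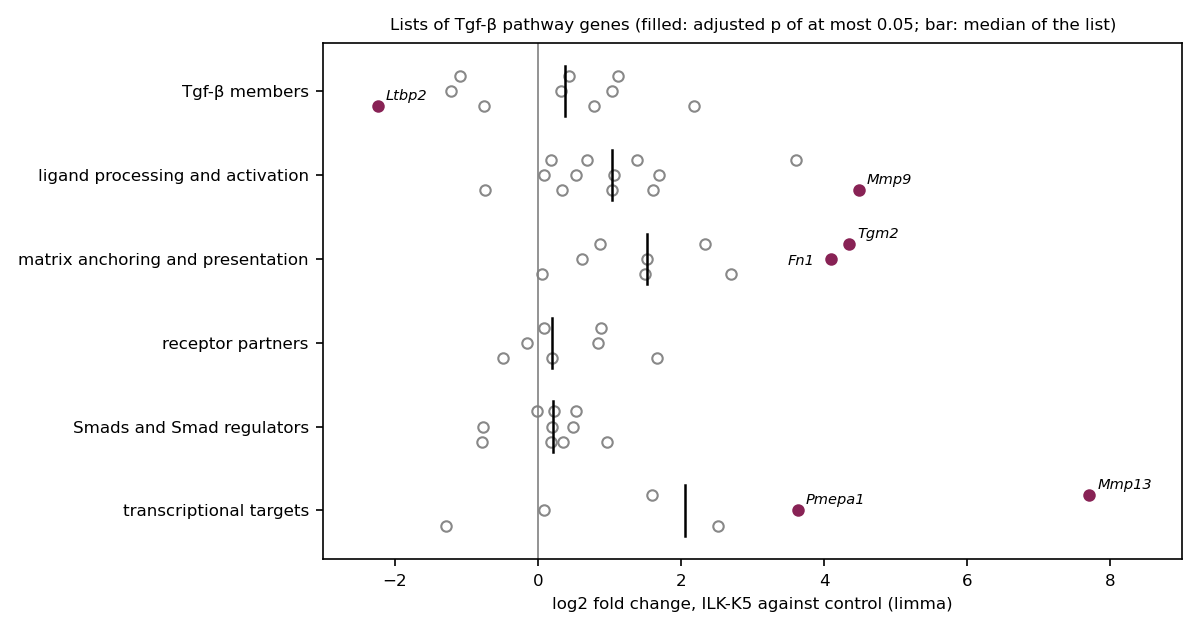
Log2 fold change (ILK-K5 against control, limma) of the 10 Tgf-β genes (top row, named members) and of the 45 genes of the 5 pathway lists, with 1 point per gene, filled where the gene was called, and a bar for the median of each list. The 5 called pathway genes, Mmp9, Fn1, Tgm2, Pmepa1 and Mmp13, lie between 3.63 and 7.70, and the receptor partners and the Smads, with medians of 0.20 and 0.21, hold no called gene.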

How the data were processed

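Bulge SCs were sorted by FACS, RNA was amplified with Ovation RNA-Seq V2, and libraries were made with Nextera XT, a kit without strand marks. Per the labels and submitters' processing notes, reads were aligned to GRCm38 with TopHat2 2.0.14 and Bowtie2 2.2.4 and compared in DESeq2 1.6.3. The program that counted reads per gene is not given in the sources used here. The authors deposited normalized counts, a signal of reads divided by a library's size factor (100.0% of values were whole reads within 0.001), and FPKM values, which differ from them by a constant factor for each gene. The authors' own comparison (fold changes and p-values) was not used.

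Symbols and coordinates came from GENCODE M21 (GRCm38) for 42193 of 43274 genes. The 3 control and 3 ILK-K5 libraries were compared with limma 3.58.1 (trend, two-sided, Benjamini-Hochberg) on log2(normalized count + 1) for 16368 genes averaging 10 or more, tested on simulated data. Recovered reads were tested with edgeR 4.0.16 and DESeq2 1.42.0. Further alternatives were other pseudocounts, filters and scalings, the FPKM table, terms for the replicate number, and leaving out each library. Single values were tested with exact permutations (scipy 1.17.1). The floor was 3 reads or fewer in all libraries of 1 genotype. The 10 genes and all lists were chosen with earlier results of these data known. Named were all 10 genes, every called gene of the pathway lists and up to 3 uncalled ones with the highest mean, the 5 genes most like Tgfb1, Tgfb2 and Ltbp2, and up to 3 of the highest markers of a list with those at the floor in every library. Intervals for counting error were not used. The values of 1 listed target gene are not reported here.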

Additional observations from a re-analysis of the deposited data

How the results depend on the processing

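Of the 10 genes, limma called 0 higher and 1 lower. With a pseudocount of 5 it called 1 higher and DESeq2 called 2 higher. With a term for replicate 1 against 2 and 3, it called 3 higher (Tgfb1, Tgfbr1 and Tgfbr2) and 2 lower (Ltbp1 and Ltbp2), 12 pathway genes higher, and 846 of all genes higher and 286 lower. With replicates 2 and 3 only, 0 of the 10 were called lower, where Ltbp2 had an adjusted p of 0.0516 from limma. DESeq2 called 9 pathway genes higher and 1 lower, and 772 of all genes higher and 280 lower, against 479 and 98 with limma. Without 1 library, 0 to 1 of the 10 were called higher and 1 to 1 lower, 4 to 10 pathway genes were called higher (10 without control library 3) and 0 to 1 lower (1 without control library 3), and 217 to 554 of all genes were called higher and 32 to 93 lower. These last counts were 312 and 36 when control library 2 was left out, and 255 and 39, 217 and 32, and 242 and 40 when ILK-K5 library 1, 2 or 3 was. Fewer libraries entered these fits, and for the other settings the cause was not tested.

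Replicate numbers are shared by the genotypes in the labels, and the deposited column names also carry the same number in both. The study used littermates as controls in its mouse experiments, but whether same-numbered libraries came from the same litter is not stated. Same-numbered libraries deviated from their group means with correlations of 0.529, 0.0198 and 0.307. Control libraries 2 and 3 correlated best with another number. Correlations over so few libraries cannot exclude a pairing, and the main fit did not pair them. With a replicate block, limma called 3 of the 10 higher and 2 lower, 12 pathway genes higher, and 848 of all genes higher and 269 lower. The difference in the log2 ratio of Tgfb1 to Tgfb2 lay between 2.26 and 3.71 without 1 library by the exact permutation test, and limma on log2(normalized count + 1) gave 2.93 with the block (p = 4.69e-05) and 2.93 without it (p = 0.00124), the last fit being chosen after seeing the data.

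Tgfbr3 changed sign, to -0.35 with replicates 2 and 3 only and -0.11 without control library 1, in a range of -0.11 to 0.86 without 1 library. The share of Tgfbr2 among the receptors, 1.30 percentage points higher in ILK-K5, was -0.191 when control library 1 and -0.812 when ILK-K5 library 3 was left out, in a range of -0.812 to 3.10 without 1 library. The other 9 genes kept their sign under all 18 alternatives run. The lowest controls for Tgfb1 held 16 and 25 reads.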
